A study of Mus musculus with 48 samples.

Results

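Day 7 tumors of mice that received control IgG were compared between iNOS KO and WT hosts. The comparison rests on 6 of the 48 RNA libraries of the series, 3 from iNOS KO and 3 from WT mice, chosen by the genotype, treatment and experiment that their titles give. Hosts were C57BL/6J mice or iNOS KO mice from the same supplier, and the KO allele is not given in the sources used here. All carried B16-D5 cells, a poorly immunogenic subclone of a mouse melanoma line, injected under the skin of the flank 8 days before treatment. Each of the 6 mice received 250 µg of IgG in 200 µL PBS on day 0 and again on day 3, and its tumor was taken on day 7, a time that comes from the paper because the titles give none. Mice were bought at 4 weeks of age and kept for 2 weeks before use. The knockout is that of the host. Both groups received the same melanoma cells, whose Nos2 state is not given in the sources used here. The other 12 libraries of the experiment, from untreated and anti-PD-1-treated KO and WT mice (3 in each group), served only to estimate the spread and to show where the IgG comparison differs.

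Inducible nitric oxide synthase, the product of Nos2, makes nitric oxide and citrulline from arginine and is switched on in macrophages and other cells by interferon-γ and microbial products. Arginases draw on the same arginine, and argininosuccinate synthase and lyase rebuild it from citrulline. Nitric oxide acts on soluble guanylate cyclase, and at higher levels it binds the heme of cytochrome c oxidase, where it competes with oxygen and slows respiration. Control IgG stands for antibody treatment without blockade of PD-1.

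No gene passed the test between iNOS KO and WT tumors after IgG. Of 30837 genes tested in the 18-library edgeR fit, 0 had an adjusted p below 0.05 (0%), and the smallest adjusted p was 0.626. An unadjusted p below 0.05 was found for 662 genes with higher counts in KO tumors (2.15%) and for 1269 with lower counts (4.12%). The DESeq2 Wald test called 37 genes (12 higher, 25 lower) and an edgeR fit without the filter on low counts called 274 (60 higher, 214 lower). All values below are therefore differences that did not pass the test across genes, and they are described by their size, their standard error and their spread over tumors.

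The genes lower in KO tumors were mostly barely detected. Of the 1269 genes lower at an unadjusted p below 0.05, 70.3% had a mean below 1 in counts scaled to library size (counts per 1000000, CPM), against 11.8% of the 662 higher genes and 51.2% of all genes tested. In 838 of the lower genes every KO library held at most 3 counts. Among the 15044 genes with a mean of at least 1 CPM the balance was the other way, with 584 higher (3.88%) and 377 lower (2.51%), and the median log2 fold change was 0.00, against -0.14 over all genes tested. Of those 377 lower genes, 272 (72.1%) had their highest value in replicate 3 of WT. For 76 it was replicate 2 of WT, for 29 replicate 1 of WT, and for none a KO library. Of all genes at that level, these WT libraries were highest for 27.6%, 14.1% and 11.6%, in the same order. These shares are no like background, because a gene lower in KO nearly always has its highest value in WT. Without replicate 3 of WT, in a fit that tested 37775 genes, 791 genes were lower in place of 1269, and 624 were higher. Lower genes numbered 933, 598 and 795 without replicates 1, 2 and 3 of KO. They numbered 1986 and 1443 without replicates 1 and 2 of WT. Each such fit has a smaller group and tested more genes, and the cause of these shifts was not tested.

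**Figure D1:**
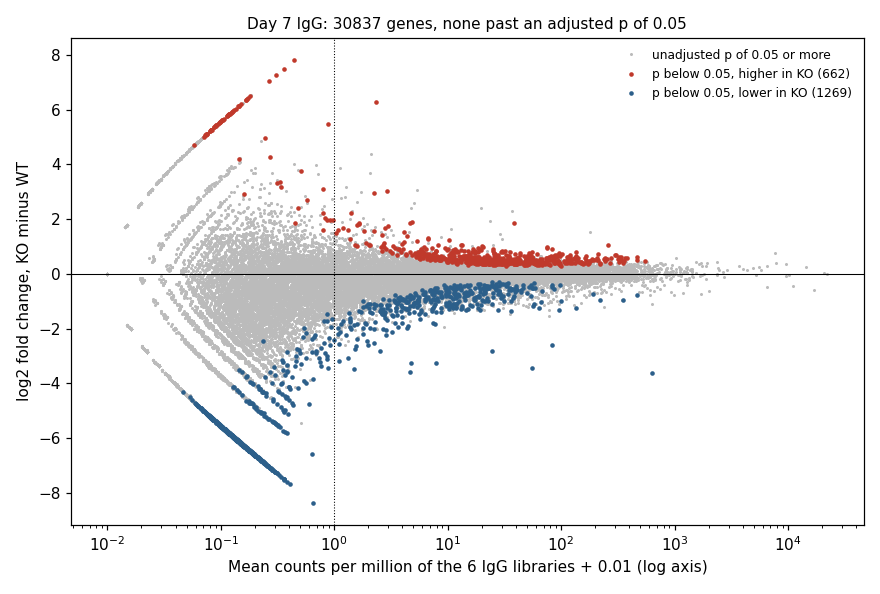
Each point is 1 of 30837 genes, with the mean of the 6 IgG libraries in CPM (log axis, 0.01 added) against the log2 fold change of KO over WT, and the dotted line at 1 CPM. Most of the 1269 blue points (lower in KO, unadjusted p below 0.05) lie left of the line, and most of the 662 red points (higher) lie right of it.

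The KO libraries held between 34215906 and 40959309 counts and the WT libraries between 27233047 and 33948155, so that 3 counts stood for 0.0763 to 0.111 CPM. A set of 1502 receptor genes of smell, pheromone sensing and taste, taken here as a measure of background, separated the groups. They made up 24.3, 12.3 and 38.1 CPM in KO and 55.0, 113 and 232 CPM in WT, and between 15.8 and 3710 CPM in the other 12 libraries. The 3 highest of those 12 were replicate 1 of untreated KO (916 CPM) and replicates 3 and 4 of WT with anti-PD-1 (3710 and 1304 CPM). Among the 6 IgG libraries, replicate 3 of WT also had the most genes with a count, 32275 against 22834 to 24899 in the other 5. It stood apart on the first principal component (77.6 against -31.0 to 11.6, 36.3% of the variance). Mitochondrial DNA transcripts took 7.18 to 10.4% of the counts in KO and 5.38 to 8.73% in WT. With the receptor level as a covariate, chosen after the data were seen, an unadjusted p below 0.05 was reached by 1575 higher and 1758 lower genes, and none was called. The part that this background has in single genes was not tested except where a value is given. In 4 gene models picked after their values were seen, Gm10800, Gm10801, Gm21738 and Gm26870, the 6 libraries follow the same order as in the receptor genes. Gm10800 lay between 21.4 and 153 CPM in KO and between 349 and 2205 CPM in WT, a log2 fold change of -3.62 that was -0.95 with the covariate.

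Nos2 itself did not separate the genotypes. It is on chromosome 11 (78920787 to 78960254, plus strand, GRCm38), and it had 2.47, 5.92 and 5.83 CPM in the KO tumors and 1.45, 3.43 and 2.81 CPM in the WT tumors. The groups overlapped, and the KO mean (4.74 ± 1.97 CPM, SD, n = 3) was above the WT mean (2.56 ± 1.01 CPM, SD, n = 3). The log2 fold change was 0.89 with a standard error of 0.58 (edgeR adjusted p = 0.632), and it was 0.50 without treatment and -0.85 with anti-PD-1. Counts per gene show neither which exons the reads came from nor whether host or melanoma cells made the transcript, so Nos2 does not check the labels here. Within 10 Mb on either side, an unadjusted p below 0.05 was found for 9 higher (2.88%) and 7 lower genes (2.24%) of 312 with at least 1 CPM, beside 3.88% and 2.51% of all genes at that level, and their median log2 fold change was 0.02.

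Of the 23 tested genes of nitric oxide synthesis and arginine metabolism, 14 were higher and 9 lower in KO tumors, with a median log2 fold change of 0.19. For the 21 of them with at least 1 CPM the median was 0.21, beside 0.00 over all genes at that level. At an unadjusted p below 0.05, 3 were higher (13.04%, beside 2.15% of all genes tested) and 1, Arg2, was lower. All 3 are among the 21 with at least 1 CPM, a level at which 3.88% of all genes were higher at that p. The higher ones were Prmt1, the main enzyme of arginine methylation in proteins (0.48 ± 0.17, SE), Qdpr, which recycles the tetrahydrobiopterin that nitric oxide synthases need (0.61 ± 0.24, SE), and Ass1, the argininosuccinate synthase (0.43 ± 0.20, SE). Prmt1 had 79.1, 78.2 and 61.5 CPM in KO and 60.8, 49.4 and 46.7 CPM in WT, so that the groups just missed each other. Ass1 overlapped between groups, with 55.5, 71.1 and 64.0 CPM in KO and 55.7, 40.5 and 45.2 CPM in WT. Asl, the lyase of the next step, had a log2 fold change of 0.36 ± 0.18 (SE). Arg1, the arginase of myeloid cells, ranged from 1.82 to 13.8 CPM in KO and from 3.95 to 7.32 CPM in WT. Arg2 had 0 counts in every KO library, which allows up to 0.0882 CPM in the shallowest of them, and 0.181, 0.099 and 0.037 CPM in WT. These are so few counts that no fold is given. The neuronal and endothelial synthases Nos1 and Nos3 had log2 fold changes of -0.07 and -0.22. The 11 tested genes of the nitric oxide receptor and cGMP signaling had a median of 0.00, and none had an unadjusted p below 0.05.

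Among the 490 genes higher in KO tumors at an unadjusted p below 0.05, at 1 CPM or more and with no overlap between groups, the 10 with the smallest p are described in full, and likewise the 10 among the 259 lower genes. Groups that do not overlap were found for 10.4% of the 15044 genes on the higher side and 6.69% on the lower side. The leading gene was Gsta4, a glutathione transferase that conjugates 4-hydroxynonenal, a product of lipid peroxidation (chromosome 9, 78182774 to 78209349, plus strand). Gsta4 had 93.3, 105 and 98.2 CPM in KO and 61.6, 57.0 and 36.9 CPM in WT. The KO tumors lay close together, and all 3 were above all WT tumors. The log2 fold change was 0.93 ± 0.20 (SE). Atp5g1, which encodes the c subunit of the rotor ring of ATP synthase, had 74.2, 76.9 and 58.8 CPM in KO and 44.1, 35.3 and 42.5 CPM in WT (0.78 ± 0.17, SE). Ndufc1, a small subunit of complex I, had 37.7, 44.5 and 40.5 CPM in KO and 27.4, 21.4 and 20.4 CPM in WT (0.82 ± 0.20, SE). In both genes the lowest KO tumor was well above the highest WT tumor.

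Slc45a2, a melanosome transporter needed for pigment, had 175, 199 and 140 CPM in KO and 114, 87.7 and 94.9 CPM in WT (0.80 ± 0.19, SE). Acat2, a cytosolic thiolase that feeds acetoacetyl-CoA to sterol synthesis, had 25.6, 25.9 and 24.5 CPM in KO and 18.2, 14.3 and 8.80 CPM in WT (0.88 ± 0.23, SE). The KO values of Acat2 were close together, while its WT values were widely spread. The other 5 were Rny1, Dkk3, a secreted protein of the Dickkopf family, Aif1l, which binds actin, Selenoh, a nuclear selenoprotein, and 0610009B22Rik. Their log2 fold changes were 1.85, 0.66, 0.56, 0.70 and 1.26.

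Rny1 and its neighbor Rny3 encode Y RNAs, short noncoding RNAs that RNA polymerase III makes and that bind the Ro60 protein. They lie within 7 kb of each other on chromosome 6, Rny1 on the minus strand (47788069 to 47788180) and Rny3 on the plus strand (47781624 to 47781725). Their sequences (GENCODE vM21 transcripts, GRCm38) are shown because Rny1 had the largest fold of the 10 leading higher genes, and capitals mark the longest run of bases they share.
Rny1: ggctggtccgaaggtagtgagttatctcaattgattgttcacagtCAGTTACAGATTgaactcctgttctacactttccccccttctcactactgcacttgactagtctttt
Rny3: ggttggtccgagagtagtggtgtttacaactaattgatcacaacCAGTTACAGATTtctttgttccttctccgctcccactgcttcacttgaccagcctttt
The shared run is 12 bases long, at positions 46 to 57 of the 112 bases of Rny1 and 45 to 56 of the 102 bases of Rny3, counted from the 5′ end.

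Rny1 had 50.1, 75.7 and 53.2 CPM in KO and 25.5, 10.2 and 13.7 CPM in WT. The KO mean of 59.7 ± 13.98 CPM was 3.62 times the WT mean of 16.5 ± 8.01 CPM (SD, n = 3), and the log2 fold change was 1.85 ± 0.44 (SE; edgeR adjusted p = 0.626). Rny3, picked after its values were seen, had 154, 229 and 198 counts in KO and 18, 3 and 35 counts in WT, a log2 fold change of 3.03 ± 1.004 (SE). Mouse genomes hold many copies of Y RNA sequence, so reads may be split between near-identical loci and these levels are uncertain. Other RNA polymerase III transcripts, also picked with their values known, did not share 1 pattern. Bc1, a neuronal short RNA, had 324, 361 and 363 CPM in KO and 204, 147 and 153 CPM in WT (1.06 ± 0.42, SE). For Rn7sk, the 7SK RNA, the fold was -0.01 ± 0.35 (SE) with overlapping groups.

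The 10 leading lower genes had log2 fold changes between -2.12 and -0.60. Gipr, the receptor of the incretin GIP, had 1.76, 2.54 and 3.27 CPM in KO and 5.79, 5.34 and 7.36 CPM in WT (-1.29 ± 0.36, SE). Rassf1, a tumor suppressor that binds microtubules and Ras, had 21.8, 21.6 and 19.7 CPM in KO and 29.6, 32.8 and 33.2 CPM in WT (-0.60 ± 0.17, SE). Ripor2, an inhibitor of RhoA in leukocytes and muscle, had 4.64, 4.40 and 3.64 CPM in KO and 6.21, 8.97 and 15.8 CPM in WT (-1.28 ± 0.36, SE). Rassf1 was tight in both groups, whereas the WT values of Ripor2 were spread, with replicate 3 the highest. Ago4, an Argonaute protein of small RNA silencing, was more spread still, with 0.756 to 1.65 CPM in KO and 1.72, 3.89 and 10.2 CPM in WT (-2.12 ± 0.63, SE). The rest were Vps37d, a subunit of the ESCRT-I complex (-0.79), Rin1, a Ras effector that activates Rab5 (-0.92), and the models B130024G19Rik (-0.75), Gm37019 (-1.57), C430049B03Rik (-1.12) and Gm48978 (-1.52).

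**Figure D2:**
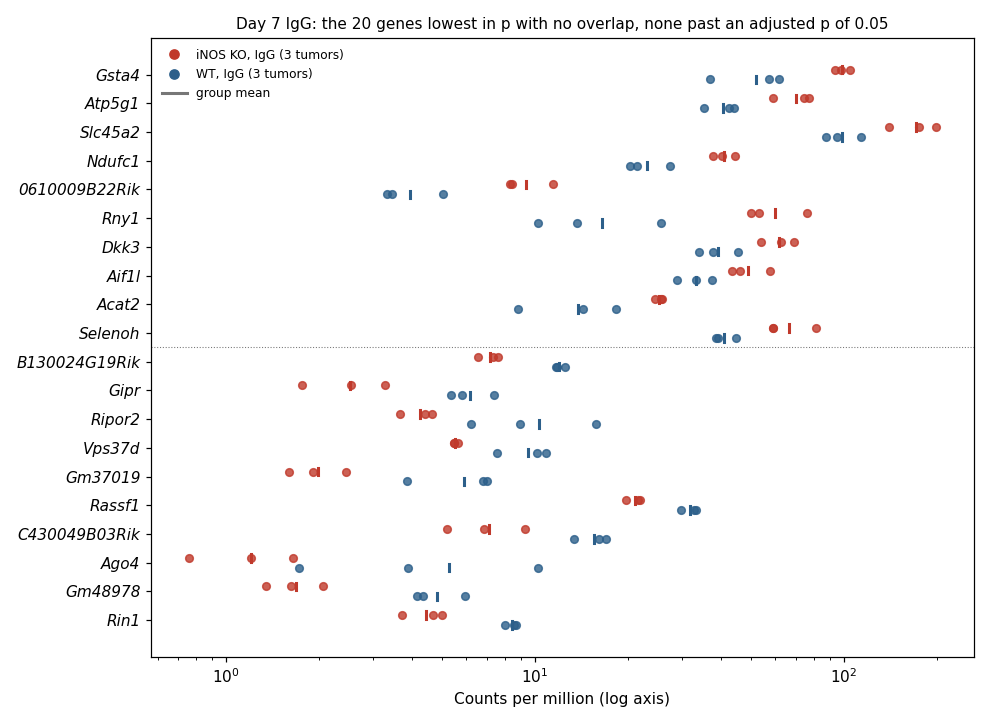
CPM (log axis) of the 20 leading genes in the 3 iNOS KO (red) and 3 WT (blue) IgG tumors, with 1 point per tumor and a bar at each group mean. In each of the 20 genes all KO points lie on 1 side of all WT points, which the rule for choosing them required, as for Rny1 (10.2 to 25.5 CPM in WT, 50.1 to 75.7 CPM in KO).

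The untreated and anti-PD-1 tumors share no library with the IgG comparison, so KO and WT could be compared there in other mice, although these mice entered the estimate of spread behind the p-values that chose the genes. All 10 higher genes were also higher in untreated KO tumors, 6 of them at an unadjusted p below 0.05 (8.26% of genes with at least 1 CPM), and 9 were higher with anti-PD-1, 7 of them at that level (11.7%). For the 10 lower genes the counts were 6 (1 at that level, 6.73%) and 8 (3 at that level, 6.19%). Gsta4 had log2 fold changes of 0.73 without treatment and 0.48 with anti-PD-1, Atp5g1 0.71 and 0.44, and Slc45a2 0.34 and 0.70. Among the lower genes Gipr was at -0.97 and -0.71, and Gm37019 at 0.02 and 0.28.

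Averaged over untreated and anti-PD-1 tumors, a contrast added after the data were seen, Rny1 was the only gene of 30837 that passed the test (0.00324%), with a log2 fold change of 2.13 ± 0.31 (SE; edgeR adjusted p = 0.0424). Among 13 alternatives, 6 leave out an IgG library, and Rny1 passed in all of them. Such a fit keeps the libraries of this contrast and changes the spread, the scaling and the genes tested (37775 to 38137). It passed in 4 of the other 7. It missed with DESeq2's size factors (0.0957) and among genes with a mean of at least 1 CPM (0.178), each value being an adjusted p. It also missed without the 3 libraries highest on receptor genes (log2 fold change 2.23). That fit leaves replicate 2 as the only WT library with anti-PD-1. In the same contrast 184 of the 490 higher genes (37.6%) had an unadjusted p below 0.05 in the same direction, against 6.77% of the 15044 genes with at least 1 CPM, and 1 had it in the opposite direction. The background share is not what these genes would give without a difference, because genes with a small p after IgG are those with a small spread in the shared fit, where a small p is more frequent in any contrast. Of the 259 lower genes 27 did so (10.4%), against 1.89%, and 1 went the other way. These shares are not given without the 3 libraries highest on receptor genes, because of the single WT library then left with anti-PD-1.

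The same fit called 181 genes between KO and WT in the untreated arm (0.587%; 180 higher, 1 lower) and 0 with anti-PD-1 (0%). The difference between genotypes was not shown to differ between IgG and the other arms. No gene had an adjusted p below 0.05 in the interaction with the untreated arm (0%), where an unadjusted p below 0.05 was found for 489 genes with a larger fold after IgG (1.59%) and 5482 with a smaller one (17.8%), or with the anti-PD-1 arm (0%), where these were 1987 (6.44%) and 300 (0.973%). DESeq2 called 241 and 19 genes in these tests. Without the 3 libraries highest on receptor genes, the edgeR fit tested 26623 genes and called 0 in the interaction with the untreated arm. An unadjusted p below 0.05 was then found for 663 genes with a larger and 1681 with a smaller fold than in the untreated arm. For the anti-PD-1 arm no counts are given, because that fit leaves replicate 2 as the only WT library there.

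**Figure D3:**
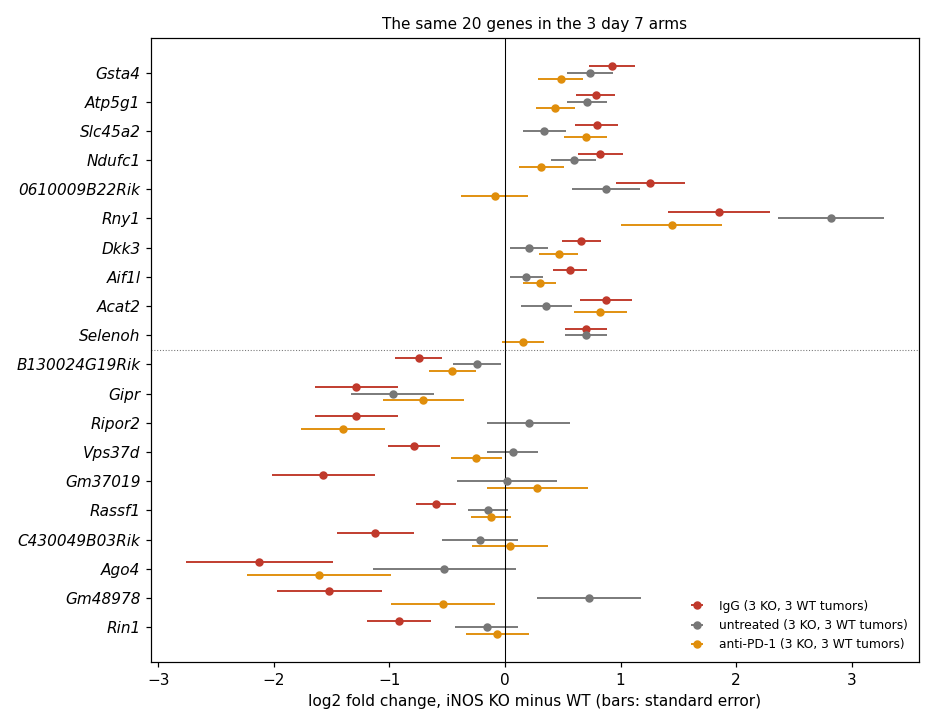
Log2 fold change of KO over WT (bars, standard error from the 18-library fit) for the 20 leading IgG genes in IgG (red), untreated (gray) and anti-PD-1 (orange) tumors, 3 KO and 3 WT in each. Points of the upper 10 genes lie right of 0 in nearly all arms, with Rny1 at 1.85, 2.82 and 1.44, while the gray and orange points of several lower genes lie near 0.

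Nuclear genes of the respiratory chain were higher in KO tumors as a group. The list was drawn up after values had been seen, since Atp5g1 and Ndufc1 were among the leading genes, and it therefore carries no test. Of 83 tested subunits 80 were higher, 33 of them at an unadjusted p below 0.05 (39.8%) and none lower at that level, and in 51 the groups did not overlap. At least 1 CPM was reached by 81 of the 83 subunits. Of all genes at that level, 50.7% had a fold above 0 and 3.88% were higher at an unadjusted p below 0.05. In 10.4% of them KO lay above WT without overlap. Of all genes tested, 35.5% had a fold above 0 and 2.15% were higher at that p. There the groups were apart with KO above WT in 5.7% and with KO below WT in 6.43%. The median log2 fold change was 0.45, and it was 0.39 without replicate 3 of WT, 0.44 without replicate 1 of KO and 0.47 with the receptor level as a covariate. Summed over the list, KO tumors had 9299, 9887 and 9259 CPM and WT tumors 7540, 7495 and 6484 CPM, without overlap.

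All 5 complexes had a positive median. Of complex I, which takes electrons from NADH, 34 of 37 subunits were higher, with a median of 0.41. For complex II, the succinate dehydrogenase, this was 4 of 4 (0.25), for complex III 9 of 9 (0.41), for complex IV, the cytochrome c oxidase, 16 of 16 (0.51), and for ATP synthase 17 of 17 (0.49). Cox7a2, a complex IV subunit, had 96.1, 107 and 95.2 CPM in KO and 49.8, 40.9 and 59.1 CPM in WT (0.995 ± 0.31, SE). Atp5mpl, a small proteolipid of ATP synthase, had 107, 112 and 106 CPM in KO and 58.6, 51.1 and 64.8 CPM in WT (0.90 ± 0.30, SE). Both were well clear of overlap. Cox6a1, another complex IV subunit, had 280, 320 and 192 CPM in KO and 173, 132 and 174 CPM in WT (0.73 ± 0.21, SE), and here the KO tumor of replicate 3 came near the WT tumors. Mitochondrial ribosomal proteins (74 of 77 higher, 18 at an unadjusted p below 0.05, 23.4%, median 0.28) were also on the higher side. Of cytosolic ribosomal proteins 75 of 80 were higher with a median of 0.25, but 3 were at that level (3.75%), close to the 3.88% of all genes with at least 1 CPM. Of the 13 protein genes of mitochondrial DNA, 11 were higher, with a median of 0.26 and none at that level.

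The size of the respiratory chain difference varied with the arm, with a list median of 0.61 in untreated tumors and 0.15 with anti-PD-1. The part that the 3 libraries highest on receptor genes have in these medians was not tested. Transcript length moved with the fold change too. Coding genes with a median transcript of up to 750 bases had a median log2 fold change of 0.10 after IgG, and those over 5000 bases of -0.04. The 63 respiratory chain genes of up to 1000 bases had a median of 0.45, with 39.7% at an unadjusted p below 0.05 and higher, and the 2204 other coding genes of that length had 0.10 and 7.12%.

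**Figure D4:**
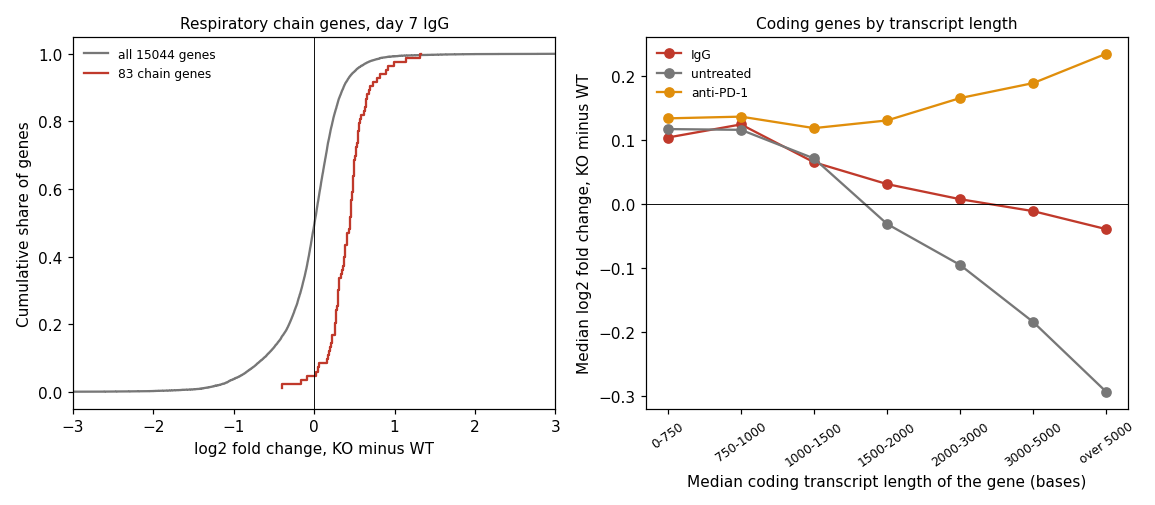
Left, cumulative share of genes by log2 fold change of KO over WT after IgG for 83 respiratory chain and ATP synthase genes (red, median 0.45) and all 15044 genes with at least 1 CPM (gray). Right, median log2 fold change of coding genes in bins of transcript length for IgG (red), untreated (gray) and anti-PD-1 (orange) tumors; the IgG line goes from 0.10 in the shortest to -0.04 in the longest bin.

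Many respiratory chain promoters carry a site for NRF1, a transcription factor of mitochondrial biogenesis. Its core, GCGCA and GCGC with any 1 base between them, searched on both strands of the RefSeq promoters (250 bases before to 50 after the start), was found in 17 of 65 list genes with an entry (26.2%) and in 5.19% of all 27025 genes. The promoter of Cox6a1 (GRCm38.p6, chr5:115348909-115349208, minus strand) is shown as an example, with its 2 matches in capitals, 162 and 117 bases before the start.
Cox6a1: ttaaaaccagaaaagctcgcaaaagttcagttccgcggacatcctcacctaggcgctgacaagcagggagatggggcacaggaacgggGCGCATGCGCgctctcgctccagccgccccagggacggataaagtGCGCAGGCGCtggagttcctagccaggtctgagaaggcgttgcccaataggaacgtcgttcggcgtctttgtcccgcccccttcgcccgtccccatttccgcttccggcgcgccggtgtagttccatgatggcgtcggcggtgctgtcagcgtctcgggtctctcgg

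Pigment genes of the melanoma cells leaned the same way. Of 18 tested genes of the melanocyte lineage 17 were higher in KO tumors, 6 of them at an unadjusted p below 0.05 (33.3%), and in 8 the groups did not overlap. Of all genes with at least 1 CPM, 50.7% were higher, 3.88% at that p and 10.4% without overlap. The median log2 fold change was 0.39, and it was 0.24 without replicate 3 of WT. Tyr, the tyrosinase that starts melanin synthesis, had 405, 434 and 347 CPM in KO and 286, 258 and 232 CPM in WT (0.61 ± 0.20, SE). Trpm1, a cation channel of melanocytes, had 325, 399 and 376 CPM in KO and 258, 233 and 189 CPM in WT (0.70 ± 0.20, SE). In both genes every KO tumor was clearly above every WT tumor. Slc45a2 was given above, and Rab27a and Rab38, which carry melanosomes or their cargo, and the exchanger Slc24a5 had log2 fold changes of 0.44, 0.42 and 0.37. Mitf, the regulator of the lineage, had 0.31 ± 0.20 (SE), and the melanosome matrix protein Pmel 0.41 ± 0.26 (SE), neither at an unadjusted p below 0.05. Ednrb, an endothelin receptor that endothelial cells also express, was the exception with -0.53 ± 0.54 (SE). In bulk tumors a larger share of a cell type and more RNA per cell of that type cannot be told apart. Summed over the list, the KO tumors had 16594, 17729 and 17446 CPM and the WT tumors 15346, 16262 and 11167 CPM.

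The M-box TCATGTG, a sequence bound by MITF, was found on either strand in 6 of 11 pigment genes with a promoter entry (54.5%; Dct, Mc1r, Slc24a5, Trpm1, Tyr and Tyrp1) and in 4.31% of all 27025 genes. The promoters of Tyr (GRCm38.p6, chr7:87493463-87493762, minus strand) and Trpm1 (chr7:64153585-64153884, plus strand) are shown because both genes were clear of overlap and carry the match, in capitals, 22 and 142 bases before the start.
Tyr: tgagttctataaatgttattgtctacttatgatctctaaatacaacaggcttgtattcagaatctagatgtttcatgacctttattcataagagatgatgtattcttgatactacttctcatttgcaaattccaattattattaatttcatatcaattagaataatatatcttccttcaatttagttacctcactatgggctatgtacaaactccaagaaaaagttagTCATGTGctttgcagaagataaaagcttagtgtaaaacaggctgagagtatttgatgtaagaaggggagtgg
Trpm1: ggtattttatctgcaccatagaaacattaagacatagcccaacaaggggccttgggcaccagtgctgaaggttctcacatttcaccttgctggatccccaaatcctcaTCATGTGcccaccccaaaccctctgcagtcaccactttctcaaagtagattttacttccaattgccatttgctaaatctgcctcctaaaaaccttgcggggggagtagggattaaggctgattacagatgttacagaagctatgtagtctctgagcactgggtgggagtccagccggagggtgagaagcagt

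Leukocyte and stromal lists were lower in KO tumors, and replicate 3 of WT moved their medians. All 18 macrophage and monocyte markers were lower, with a median log2 fold change of -0.76, and without that library 8 of 18 were lower with a median of 0.05. Csf1r, the receptor of macrophage growth factor, had 42.1, 76.5 and 68.4 CPM in KO and 44.1, 67.0 and 257 CPM in WT, so that 1 tumor was several times above the other 5. Ccr2, the chemokine receptor of monocytes, had 18.2, 15.5 and 13.8 CPM in KO and 23.7, 19.4 and 75.1 CPM in WT (-1.31 ± 0.51, SE). Of 15 tested B and plasma cell markers, 5 of which had at least 1 CPM (median -0.94), 12 were lower (median -1.24). Without replicate 3 of WT 9 of 15 were lower (median -0.18). The 18 fibroblast and collagen genes were all lower (median -0.66), and without that library 16 of 18 were (median -0.27). Collagen Col1a1 had 1099, 1804 and 1810 CPM in KO and 1628, 2218 and 3445 CPM in WT.

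T cell and cytotoxic lymphocyte markers were lower in 23 of 23 cases (median -1.04), and without that tumor in 19 of 23 (median -0.54). Lck, the first kinase of the T cell receptor, had 0.353, 0.610 and 0.945 CPM in KO and 2.32, 2.77 and 1.96 CPM in WT, and its groups did not overlap (-1.88 ± 0.73, SE). Lck alone had an unadjusted p below 0.05, and the groups of 4 markers did not overlap, beside 4.12% and 6.43% of all genes tested on the lower side, so the count at that p is near the background. At least 1 CPM was reached by 14 of the 23, all lower (median -1.01). Of these 14 only Lck was without overlap, beside 6.69% of genes at that level on the lower side. A fold above 0 was found for 50.7% of genes at that level and for 35.5% of all genes tested. Cd8a, the co-receptor of cytotoxic T cells, overlapped, with 0.353, 0.737 and 1.67 CPM in KO and 2.99, 1.52 and 0.629 CPM in WT. Summed over the list, KO tumors had between 66.1 and 124 CPM and WT tumors between 133 and 201 CPM. The receptor gene background was higher in WT as well, and with it as a covariate the median of the T cell list was -0.71.

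Genes induced by interferon-γ showed no common direction, with 19 of 36 tested genes higher in KO and a median of 0.08. Without replicate 3 of WT 30 were higher, with a median of 0.37. The same list had a median of 1.33 without treatment and -0.75 with anti-PD-1. Those arms hold the 3 libraries highest on receptor genes, whose part in these medians was not tested. Tgtp1, an immunity-related GTPase with a near-identical copy, Tgtp2, had 5.73, 1.09 and 16.2 CPM in KO and 2.08, 2.41 and 1.74 CPM in WT (1.88 ± 0.80, SE). Igtp, of the same family, had 22.5, 11.6 and 45.6 CPM in KO and 12.4, 13.1 and 14.1 CPM in WT (1.01 ± 0.44, SE). In both genes the 3 WT tumors agreed, KO replicate 2 was below them and KO replicate 3 was several times above. The MHC class II gene H2-Ab1 went the other way, with 69.4, 75.0 and 92.0 CPM in KO and 79.8, 88.2 and 401 CPM in WT (-1.27 ± 0.60, SE), and its fold was -0.09 without WT replicate 3. The chemokine Cxcl9, which attracts T cells, had a log2 fold change of 0.86 ± 0.58 (SE).

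Of 39 tested type I interferon-stimulated genes 30 were lower and 9 higher, with a median of -0.20, and -0.04 without replicate 3 of WT. Mx1, an antiviral GTPase, had 9.34, 7.37 and 6.07 CPM in KO and 10.01, 18.5 and 20.2 CPM in WT, which just separates the groups (-1.10 ± 0.38, SE). Of 11 tested interferon genes and receptors 3 were higher and 8 lower, with a median of -0.31, and -0.04 without replicate 3 of WT. The transcription factor Irf5 (-1.14 ± 0.41, SE) and the kinase Tyk2 (-0.43 ± 0.21, SE) were lower at an unadjusted p below 0.05. On the lower side 4.12% of all genes tested had such a p. Both are among the 10 with at least 1 CPM, a level at which the share was 2.51%. In 1 of the 11 genes KO lay below WT without overlap. Irf5 had 8.35, 10.3 and 10.6 CPM in KO and 9.32, 19.1 and 36.2 CPM in WT, so that its groups overlapped and WT replicate 3 was the highest. The 15 tested genes of MHC class I and peptide loading had a median of -0.01, and B2m, its light chain, had a fold of 0.20 ± 0.40 (SE). Cd274, which encodes the PD-1 ligand PD-L1, had 17.3, 17.1 and 22.1 CPM in KO and 16.3, 14.4 and 22.4 CPM in WT. The groups overlapped for Cd274 (log2 fold change 0.09 ± 0.27, SE).

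Markers of muscle, skin and fat varied from tumor to tumor. Skeletal muscle markers summed to 1483, 44.9 and 202 CPM in KO and 39.1, 501 and 53.3 CPM in WT, and their median log2 fold change of 1.52 became -0.49 without replicate 1 of KO. Keratinocyte and hair follicle markers summed to 126, 9.91 and 10.99 CPM in KO and 12.6, 16.2 and 19.2 CPM in WT, with a median of 2.05 that became -1.90 without the same tumor. Adipocyte markers, all 13 lower with a median of -0.51, were all higher without replicate 3 of WT (median 1.42). The 14 endothelial markers had a median of 0.10 and the 9 markers of pericytes and smooth muscle one of -0.02, and none in either list had an unadjusted p below 0.05.

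**Figure D5:**
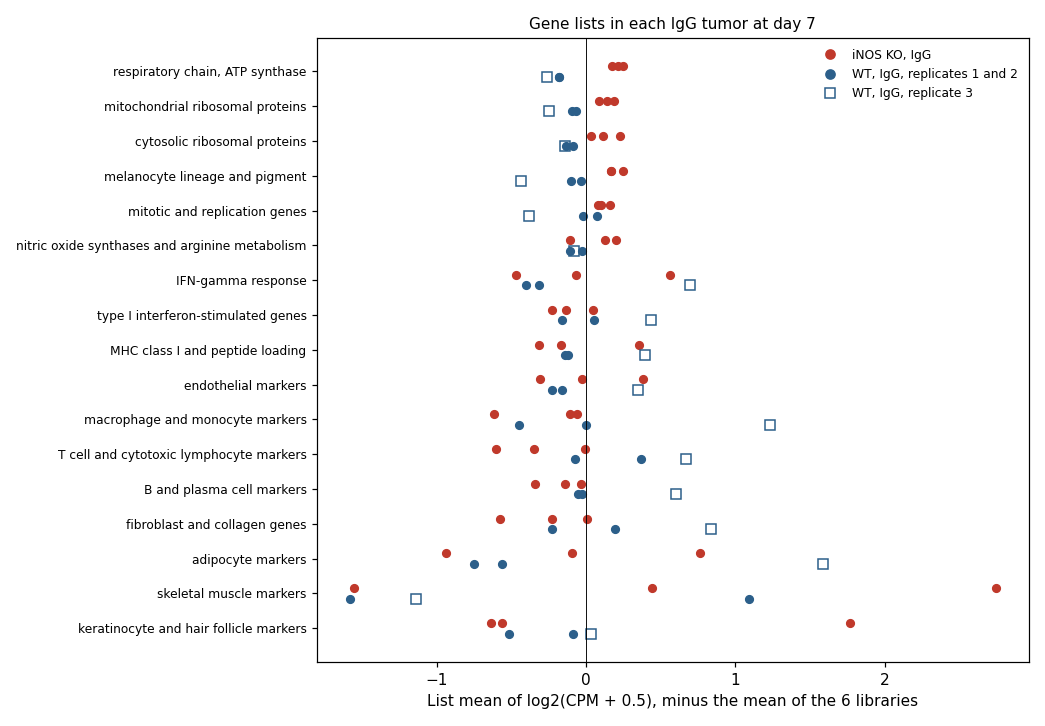
Mean of log2(CPM + 0.5) over each gene list in the 3 iNOS KO (red) and 3 WT (blue) IgG tumors, as the difference from the mean of the 6 libraries, with replicate 3 of WT as an open square. For the respiratory chain all red points lie above all blue ones, whereas for macrophage, B cell and fibroblast genes the open square stands alone on the right.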

How the data were processed

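RNA of 48 mouse tumors was used, of which 6 (3 iNOS KO and 3 WT, IgG, day 7) form the comparison. According to the authors, total RNA (100 ng) was made into strand-specific libraries and read as 100-base pairs, adapters were removed with cutadapt 1.8.1, and reads were aligned to mm10 with STAR 2.7.7a and counted per gene of GENCODE vM21 with RSEM 1.3.0. The deposited counts are whole numbers without normalization, although the table is named after another counter. Groups come from the titles, because other label fields conflict with them. The genotype field reads WT for all, while 9 titles give KO. Replicates are single tumors of separate mice.

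All 18 day 7 libraries were fitted with edgeR 4.0.16 (R 4.3.3, TMM, filterByExpr with a minimum count of 10, quasi-likelihood F-test, 12 residual degrees of freedom), with Benjamini-Hochberg adjustment across the 30837 genes tested and a threshold of 0.05. CPM are scaled by TMM, standard errors are the log2 fold change over the root of F, and values after ± are SE or SD as marked. The common coefficient of variation between tumors was 0.786, and floors cover counting error only. Named genes are, per direction, the 10 with the smallest p among those with a mean of at least 1 CPM, an unadjusted p below 0.05 and no overlap, and further list members. The members, lists and tests were chosen with earlier results of these data known. Alternatives were DESeq2's size factors and Wald test (DESeq2 1.42.0), no filter, fewer libraries, a replicate block, each replicate left out, and, added after seeing the data, a receptor covariate and a 1 CPM filter. The script was tested on simulated data. Replicate numbers were not treated as pairs in the main fit. The deviations of same-numbered IgG tumors correlated at -0.05, -0.13 and -0.03, and those of the other pairs at -0.07 to 0.12. Deviations from a group mean depend on each other, so these values cannot decide whether the numbers pair tumors. Python 3.11.15 served for tables and plots.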

Additional observations from a re-analysis of the deposited data

How the results depend on the processing

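The count of genes past the threshold after IgG was 0 in the main fit and in 14 of 16 alternatives, and the exceptions were the fit without a filter (274) and the DESeq2 Wald test (37, of which 16 had a mean of at least 1 CPM and 8 are among the 20 leading genes). The interaction with the untreated arm had 0 called genes, 1562 without a filter and 241 with DESeq2, and that with the anti-PD-1 arm 0, 270 and 19. The 20 leading genes kept their direction in all 16 alternatives. The replicate block gave 0 called genes, and 565 genes on the higher and 902 on the lower side had an unadjusted p below 0.05 (743 and 860 with only the 6 IgG libraries), in place of 662 and 1269. No source used here says that the numbers pair tumors. At that level, 1120 genes were higher without the 3 libraries highest on receptor genes and 1575 with the receptor covariate, while 2652 were lower without a filter and 483 with a filter at 1 CPM. Leaving out 1 tumor in turn gave 422 to 813 higher and 598 to 1986 lower genes, in fits that tested 37775 to 38137 genes. The counts moved by over 1.5 times without KO replicate 2 (422 higher, 598 lower), KO replicate 3 (795 lower), WT replicate 1 (1986 lower) and WT replicate 3 (791 lower). Nos2 was between 0.64 and 1.20 on the log2 scale in all 16 alternatives and passed in none.

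Directions turned for Nos1 (0.27 with the covariate), for Rn7sk (0.022 without a filter, 0.025 without the 3 libraries, 0.0019 in the 12 IgG and untreated libraries and 0.43 with the covariate) and for Cd274 (-0.15 with the covariate). With 1 tumor left out in turn, log2 fold changes of both signs were found for Nos1 (-0.22 to 0.14), Rn7sk (-0.12 to 0.14), Cd274 (-0.011 to 0.30), B2m (-0.33 to 0.42), Csf1r (-1.32 to 0.17), Adipoq (-1.66 to 1.14), Krt5 (-3.50 to 6.28) and Ttn (-1.01 to 4.25). The tumor whose loss turned the sign was WT replicate 3 for Csf1r and Adipoq, KO replicate 1 for Nos1, Krt5 and Ttn, KO replicate 3 for B2m and, with WT replicate 2, for Cd274, and KO replicates 1 and 2 and WT replicate 2 for Rn7sk. The cause was not tested. Levels below 1 CPM rest on few counts.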

Other observations

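All 20 mitotic and replication genes were higher in KO tumors after IgG, with a median log2 fold change of 0.19 that was 0.05 (12 of 20 higher) without replicate 3 of WT. Cdk1, the kinase that drives mitosis, had 53.95, 61.9 and 58.2 CPM in KO and 43.9, 38.3 and 43.6 CPM in WT, and the groups did not overlap (0.47 ± 0.13, SE). Of 14 genes of melanoma invasion and dedifferentiation 11 were lower, with a median of -0.15. Ngfr, a neural crest receptor that marks dedifferentiated melanoma cells, had 4.00, 4.19 and 1.78 CPM in KO and 10.04, 20.2 and 4.29 CPM in WT, so that the groups only just separated (-1.79 ± 0.57, SE). Of 14 tested genes of the integrated stress response 8 were higher and 6 lower, with a median of 0.19. At an unadjusted p below 0.05, 3 were higher (21.4%, beside 2.15% of all genes tested). With at least 1 CPM this held for 2 of 13, beside 3.88% of all genes at that level. The 3 included Phgdh, which starts serine synthesis, at 0.58 ± 0.19 (SE) with overlapping groups, and Slc3a2, the heavy chain of amino acid transporters, at 0.42 ± 0.18 (SE). Lists of hypoxia and glycolysis (median -0.04), oxidative stress genes of NRF2 (0.18), apoptosis regulators (0.01), the circadian clock (-0.17), immediate early genes (-0.23), heat shock (0.16), inflammatory cytokines (-0.13), checkpoint genes (-0.34) and nerve and Schwann markers (-0.33) had at most 1 gene each at an unadjusted p below 0.05. Dendritic cell and neutrophil lists had medians of -0.54 and -1.20, which were -0.13 and 0.00 without replicate 3 of WT. At least 1 CPM was reached by 7 of 9 tested dendritic cell markers (median -0.43). For neutrophil markers this was 2 of 10 (median -0.17), so the median of that list rests mostly on few counts.

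Xist, the RNA that coats the inactive X chromosome, had 207, 256 and 260 CPM in KO and 274, 398 and 729 CPM in WT, a log2 fold change of -0.95 ± 0.46 (SE) without overlap. All 6 tumors expressed it. The 7 tested erythrocyte genes had a median of 1.36, but 1 of them reached 1 CPM and it was at -0.17. Alas2, which starts heme synthesis in red cell precursors, had 1.18, 2.21 and 0.837 CPM in KO and 0.302, 0 and 0.185 CPM in WT (3.08 ± 1.15, SE), a fold that rests on few counts in WT.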
